A study of Aspergillus oryzae with 20 samples.

Results

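The comparison described here set the 10 libraries of Aspergillus oryzae that lack admA against the 10 that bear it, which is every one of the 20 libraries measured. The libraries lacking admA were 5 of ΔadmA (labelled del-pyrG del-admA) and 5 of ΔadmAΔadmB (del-pyrG del-admA del-admB). Those bearing admA were 5 of the deletion control (del-pyrG) and 5 of ΔadmB (del-pyrG del-admB). All 4 strains derive from RIB40, carry a deletion of pyrG and are labelled pyrG+ and ligD+. All were grown on wheat bran solid medium at 30 °C for 72 h. The labels say neither whether a strain is 1 clone nor whether each of its 5 libraries had a flask of its own. The p-values thus reflect library-to-library spread alone, and that spread may be technical. Of the 12074 genes listed in each library, 10652 reached 1 RPKM in at least 5 libraries and were tested, 702 of them with a gene symbol.

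A. oryzae is the filamentous fungus of koji making, and on moist bran it grows as hyphae that secrete hydrolytic enzymes and later form conidia. The genes admA and admB are named after the ADAM family, membrane-anchored metalloproteases. In animals such proteases release the outer parts of other membrane proteins from the cell surface. Fungal surface sensors of the cell wall integrity pathway pass signals through protein kinase C to a MAP kinase cascade. Because admB is present in one pair of strains (ΔadmA and control) and absent from the other (ΔadmAΔadmB and ΔadmB), the difference with admA absence was measured once in each background, and these 2 differences share no library.

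The label of the groups was first set against the gene itself. The gene admA (AO090138000114) was listed above 0 in 1 of the 10 libraries labelled as lacking it and in 9 of the 10 labelled as bearing it (two-sided Fisher's exact test, p = 0.00109). Even where it is kept its level was low, with a median of 0.255 RPKM and a highest value of 14.2 RPKM, and it was below the filter for the test across genes. The identifiers of admB and ligD are not paired with a symbol and were not analysed here. The gene pyrG (AO090011000868), for orotidine 5′-phosphate decarboxylase of pyrimidine synthesis, measured 30.1 ± 17.1 RPKM (SD, n = 10) in libraries lacking admA and 38.4 ± 15.5 RPKM in those bearing it, a difference that did not pass the test (limma, adjusted p = 0.825).

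RPKM sums were 3974009 to 5163347 in libraries lacking admA and 4053109 to 5401733 in those bearing it, and 729 to 1179 against 655 to 1260 genes were listed at 0. Relative depth, read from the steps of low values, spanned 1.14 to 1.97 times the shallowest library against 1.00 to 2.42 times, and may be off by a whole factor in some libraries. The step sizes divided the libraries into 2 sets, and each side of the comparison held 6 libraries of set 1 and 4 of set 2. Within a background the sets were unequal, with 2 control, 3 ΔadmA, 4 ΔadmB and 3 ΔadmAΔadmB libraries in set 1 and 3, 2, 1 and 2 in set 2. The first principal component, with 27% of the variance, ran from -74.0 to 81.5 in libraries lacking admA and from -67.3 to 94.4 in those bearing it, so it did not separate the sides. It did set replicate 1 apart from replicate 5. In control, ΔadmA, ΔadmB and ΔadmAΔadmB, replicate 1 lay at -62.5, -74.0, -59.6 and -50.4, and replicate 5 at 83.7, 70.4, 21.1 and 81.5. Replicates 2 to 4 ran from -69.2 to 94.4.

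Over both backgrounds 1 gene of 10652 passed the adjusted test (0.00939% of tested genes; limma on log2(RPKM + 1) with admB status as a covariate, Benjamini-Hochberg adjusted p under 0.05). That gene, AO090010000345, has no symbol in the reference table, and it fell with admA absence in both backgrounds. Replicates 1 to 5 of the control measured 21.5, 28.5, 18.5, 34.9 and 19.5 RPKM, and those of ΔadmA 11.6, 7.81, 8.22, 6.89 and 6.42 RPKM; values of other genes are given in the same order. Every ΔadmA library lay below every control library. In the strains without admB it measured 21.1, 33.6, 28.5, 17.9 and 41.6 RPKM in ΔadmB, and 19.5, 13.5, 11.2, 5.29 and 4.71 RPKM in ΔadmAΔadmB. Here the groups overlapped at 1 library, since ΔadmAΔadmB replicate 1 lay above ΔadmB replicate 4.

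The mean of AO090010000345 was 9.52 ± 4.53 RPKM (SD, n = 10) without admA and 26.6 ± 8.17 RPKM with it. The log2 difference was -1.44 (SE 0.22, 95% interval -1.91 to -0.98, adjusted p = 0.0378), with -1.46 in the background with admB and -1.43 in the background without it. All 10 libraries lacking admA lay below the median of the 10 bearing it. Such counts, here and below, come from the same values that chose the genes and are not further evidence. Of the 17 tested genes among its 20 nearest in reference order, 11 were lower without admA and 1 had an unadjusted p under 0.05. The call was lost when any 1 of 15 libraries was left out (adjusted p 0.00626 to 0.119 over the 20 libraries left out in turn). It held only without ΔadmA replicate 1, ΔadmB replicate 4, or ΔadmAΔadmB replicate 1, 2 or 4, and was lost without any other library, each of the 5 controls included. It was also lost with the replicate number as a block (adjusted p = 0.128), with 1 mean per strain (0.0694), with no filter on low values (0.0505) and in either library set alone (0.999 and 0.391).

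At an unadjusted p under 0.05, 1009 genes differed (9.47% of tested genes), 466 of them higher (4.37%) and 543 lower (5.1%) without admA. Of the 1009, 963 (9.04% of tested genes) had the same sign in both backgrounds, which is partly built in, since the pooled difference is the mean of the 2. The 2 backgrounds measured separately shared little of this across all genes. The sign was the same in 5571 of 10652 genes (52.3%), and across genes, which are not independent replicates, the 2 differences had a Pearson r of 0.07 and a Spearman rho of 0.06. In ΔadmA against control, 115 genes passed the adjusted test (1.08%) and 1096 had an unadjusted p under 0.05 (10.3%). In ΔadmAΔadmB against ΔadmB, limma called 0 genes (smallest adjusted p 0.805), and 612 had an unadjusted p under 0.05 (5.75%). Of the 115 genes called with admB present, 75 (65.2%) had the same sign where admB is absent, 6 of them at an unadjusted p under 0.05, against 1 with the opposite sign at that p. For the 115 genes, the ratio of the difference without admB to that with admB, sign kept, had a median of 0.055. These genes were chosen for a large difference with admB in the same libraries, which lowers the ratio, and so do opposite signs. The median therefore does not measure how far the difference depends on admB. No gene passed the adjusted test of the interaction, the difference between the 2 differences (limma, 0 genes, smallest adjusted p 0.125), and 693 had an unadjusted p under 0.05 (6.51%). That count of 0 became 63 without ΔadmA replicate 1, 15 with array quality weights and 3 with library set as a covariate.

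Genes that shifted the same way in both backgrounds were taken as those with an unadjusted p under 0.05 and the same sign in each. There were 55 of these (0.516% of tested genes), 29 higher (0.272%) and 26 lower (0.244%) without admA, beside 16 with opposite signs at that p (0.15%). Their pooled log2 differences ran from -3.54 to 3.92, with a median size of 0.95, and 23 of the 55 differed by at least 1 log2 unit. Of the 55, 6 were among the 115 called in ΔadmA against control, and 3 carried a symbol, namely nop12, acuF and bna4. The count was 89 without ΔadmA replicate 1. Within set 1 alone, 15 genes met the same rule with the same sign and 12 with opposite signs, and within set 2 alone 47 and 48 did. Set 2 held only 1 ΔadmB library and 2 of ΔadmAΔadmB, so its counts rest on that 1 library where admB is absent. The part of the library sets in these counts was not tested.

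**Figure D1:**
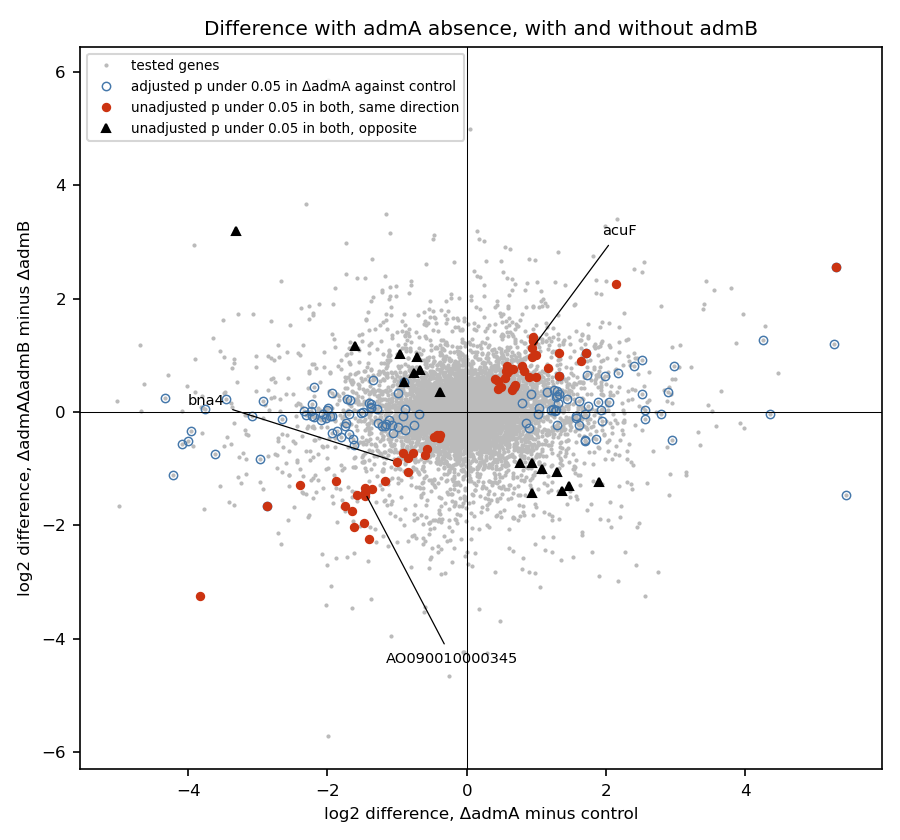
Difference in log2(RPKM + 1) of each tested gene in ΔadmA minus control (horizontal axis) and in ΔadmAΔadmB minus ΔadmB (vertical axis). Red points are the 55 genes with an unadjusted p under 0.05 and the same sign in both, and black triangles the 16 with opposite signs. Open circles are the 115 called in ΔadmA against control, of which 75 have the same sign on both axes.

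None of the 10652 genes separated all 10 libraries lacking admA from all 10 bearing it (0.0% of tested genes). With 5 libraries against 5, 211 genes did so in ΔadmA against control (1.98%) and 96 in ΔadmAΔadmB against ΔadmB (0.901%), with 2 genes doing so in the same direction in both (0.0188%) and 1 in opposite directions (0.00939%). The 2 genes are named here after their values were seen. AO090009000076 was lower without admA, at 5.37 to 20.1 RPKM in control, 1.20 to 4.97 in ΔadmA, 9.73 to 31.0 in ΔadmB and 1.63 to 9.56 in ΔadmAΔadmB. Its log2 difference was -1.37 with admB and -1.36 without it (pooled adjusted p = 0.145). AO090012000560 was higher, at 7.69 to 9.11 RPKM in control, 10.7 to 18.3 in ΔadmA, 5.09 to 6.32 in ΔadmB and 6.54 to 11.5 in ΔadmAΔadmB. Its differences were 0.68 and 0.45 (pooled adjusted p = 0.145). Neither has a symbol, and neither passed the adjusted test.

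Among genes with a symbol none passed the adjusted test of admA absence, so those that follow are given as values only. The rule for naming them took the 10 with the smallest unadjusted p in each direction among genes of the same sign in both backgrounds. Those higher without admA were nop12, acuF, pyr2, sha1, lah, gliK, rex3, optF, bck1 and pmcB, and those lower were vtc4, fpaI, bna4, hir1, bgt2, mde1, argB, mpt, rrp36 and flbB. Of the 702 genes with a symbol, 53 had an unadjusted p under 0.05, and 52 of these had the same sign in both backgrounds, 22 higher and 30 lower. Among all 10652 tested genes 1009 (9.47%) reached that p, and 963 of the 1009 had the same sign in both backgrounds. The shared sign is partly built in, since the pooled difference is the mean of those in the separate backgrounds. The count of 52 is therefore not further evidence that the backgrounds agree.

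The gene acuF (AO090003000174) bears the name of phosphoenolpyruvate carboxykinase, the enzyme that draws carbon from the citric acid cycle into gluconeogenesis. It measured 3425, 1360, 3644, 2032 and 1133 RPKM in control and 4289, 3892, 4728, 2746 and 4720 RPKM in ΔadmA. It measured 2981, 1452, 1081, 858 and 1615 RPKM in ΔadmB and 2838, 2662, 5172, 3599 and 2284 RPKM in ΔadmAΔadmB. Of the ΔadmA libraries 4 of 5 lay above every control, of the ΔadmAΔadmB libraries 2 of 5 lay above every ΔadmB library, and the ranges overlapped in both backgrounds. The log2 difference was 1.03 (SE 0.25, adjusted p = 0.221), with 0.94 in the presence of admB and 1.13 in its absence, and all 10 libraries lacking admA lay above the median of those bearing it.

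The gene nop12 (AO090103000065) is named after a yeast nucleolar protein of ribosomal RNA processing. It measured 177, 158, 262, 229 and 172 RPKM in control and 321, 259, 386, 266 and 346 RPKM in ΔadmA. It measured 215, 160, 124, 191 and 157 RPKM in ΔadmB and 226, 374, 199, 299 and 356 RPKM in ΔadmAΔadmB. In each background 1 library without admA lay inside the range of the libraries with it, and the others lay above that range. The log2 difference was 0.71 (SE 0.15, adjusted p = 0.145), 0.67 with admB and 0.76 without it.

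Several genes higher without admA differed in size between the backgrounds. The gene gliK, which shares its name with a gene of gliotoxin synthesis in Aspergillus fumigatus, differed by 1.04 where admB is present and by 0.07 where it is absent (pooled 0.55, adjusted p = 0.333). The interaction for gliK had an unadjusted p of 0.00915 and did not pass after adjustment. The gene optF, with the name of an oligopeptide transporter, gave 1.46 and 0.36 (adjusted p = 0.355). Its interaction had an unadjusted p of 0.104 (limma, adjusted p = 0.818). Nearly the same value in both backgrounds was measured for bck1, a MAP kinase kinase kinase of cell wall integrity signalling, at 0.48 and 0.53 (adjusted p = 0.387), and for pmcB, a calcium-transporting ATPase, at 0.51 and 0.66 (adjusted p = 0.444).

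The lower side included vtc4, bna4 and bgt2, each of which is 1 gene and does not stand for its pathway. In the phosphate list 2 of 4 genes were higher without admA, and in the glucan list 7 of 14 were. The gene vtc4 (AO090011000795), for the enzyme that makes polyphosphate at the vacuole membrane, measured 183, 169, 145, 214 and 307 RPKM in control and 84.2, 74.1, 60.4, 44.1 and 61.7 RPKM in ΔadmA. It measured 155, 147, 168, 193 and 310 RPKM in ΔadmB and 191, 129, 154, 127 and 62.5 RPKM in ΔadmAΔadmB. The groups were apart where admB is present and overlapped where it is absent. The difference was -1.62 with admB and -0.58 without it, and pooled -1.10 (SE 0.23, adjusted p = 0.145).

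The gene bna4 (AO090005001567), for kynurenine 3-monooxygenase of the route from tryptophan to NAD, measured 106, 176, 128, 126 and 136 RPKM in control and 114, 57.2, 28.2, 38.4 and 168 RPKM in ΔadmA. It measured 162, 306, 264, 450 and 407 RPKM in ΔadmB and 171, 259, 111, 127 and 179 RPKM in ΔadmAΔadmB. The groups overlapped in both backgrounds. Its differences were -1.01 and -0.88, and pooled -0.94 (SE 0.28, adjusted p = 0.273), with 7 of 10 libraries lacking admA below the median of those bearing it.

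The gene bgt2 (AO090009000117), for a β-1,3-glucanosyltransferase that remodels wall glucan, measured 118, 325, 123, 197 and 349 RPKM in control and 79.5, 77.9, 90.7, 180 and 161 RPKM in ΔadmA. It measured 128, 184, 153, 370 and 301 RPKM in ΔadmB and 176, 131, 95.9, 127 and 109 RPKM in ΔadmAΔadmB. All 10 libraries lacking admA lay below the median of those bearing it, though the ranges overlapped in each background. The differences were -0.86 and -0.74, and pooled -0.80 (SE 0.25, adjusted p = 0.298).

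**Figure D2:**
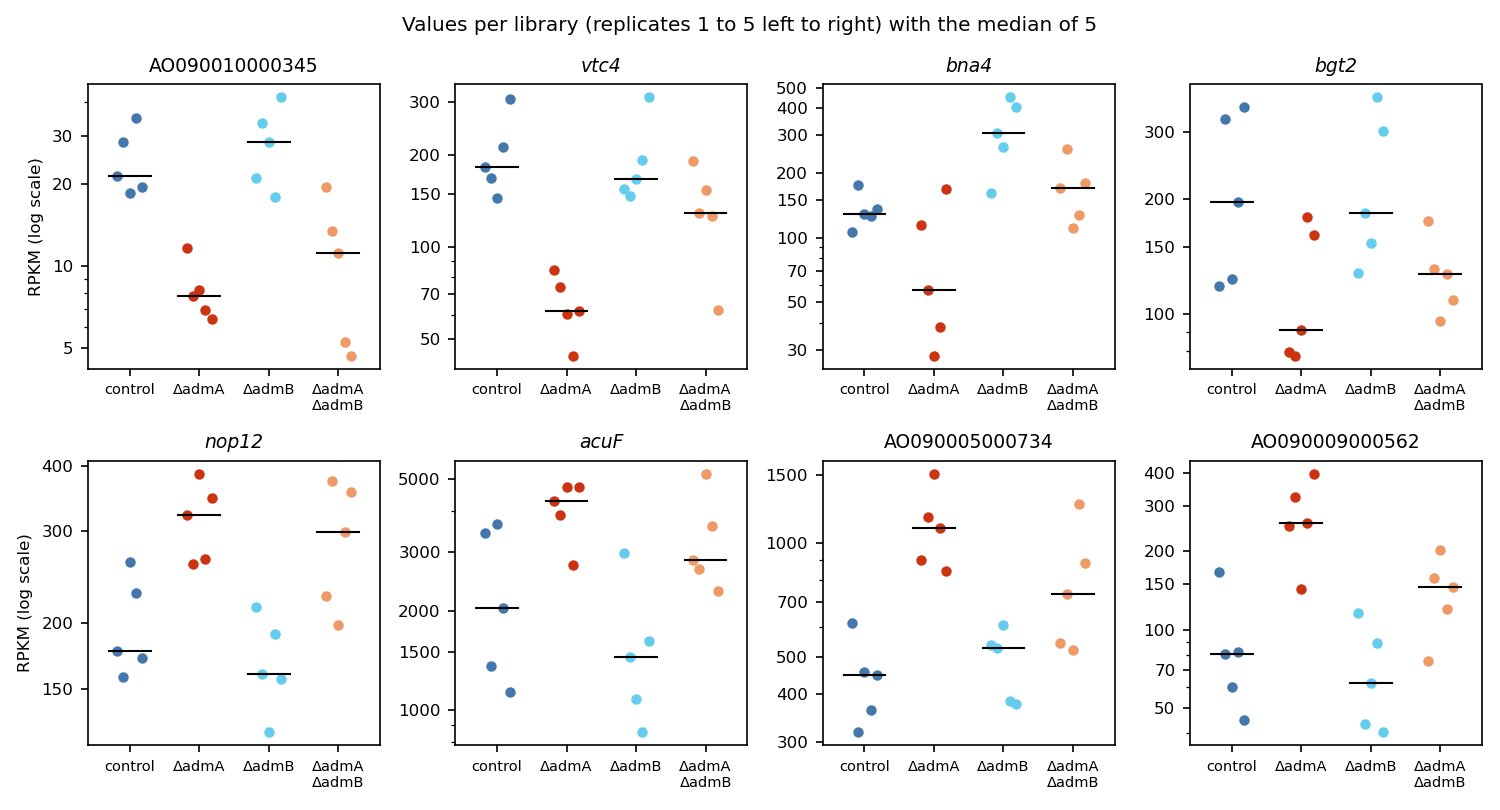
RPKM of 8 genes in each of the 20 libraries, on a log scale of its own for each gene, by strain; the bar is the median of 5 libraries. AO090010000345, vtc4, bna4 and bgt2 had lower medians, and nop12, acuF, AO090005000734 and AO090009000562 higher medians, in each strain lacking admA than in its counterpart, and only AO090010000345 passed the adjusted test.

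The gene flbB, for a bZIP regulator upstream of conidiation, was uneven between the libraries lacking both genes. It measured 1759, 169, 1890, 110 and 512 RPKM in ΔadmAΔadmB, against 1093 to 1619 RPKM over the 5 ΔadmB libraries. In ΔadmA it measured 573 to 1356 RPKM and in control 1270 to 2007 RPKM. The 2 highest ΔadmAΔadmB libraries lay above every ΔadmB library and the other 3 below every one (pooled difference -1.22, SE 0.42, adjusted p = 0.322).

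The gene hir1 had the widest interval of the 20, with a difference of -2.50 (95% interval -4.12 to -0.88, adjusted p = 0.295). It measured 1368, 228, 2216, 47.6 and 629 RPKM in control and 429, 3867, 47.1, 40.4 and 41.5 RPKM in ΔadmB. In libraries lacking admA it stayed between 22.8 and 160 RPKM, with a median of 52.7 RPKM. High values therefore occurred in 6 of the libraries bearing admA, and the other 4 lay within the range of those lacking it.

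Among enzymes of amino acid metabolism, argB, for ornithine carbamoyltransferase of arginine synthesis, differed by -0.40 (adjusted p = 0.298), at 29.1 ± 3.79 RPKM (SD, n = 10) without admA and 39.1 ± 7.87 RPKM with it. The gene mde1, of the methionine salvage route in yeast, differed by -0.62 (adjusted p = 0.298), at 525 ± 156 RPKM against 806 ± 218 RPKM. All 10 libraries lacking admA for argB, and 9 of 10 for mde1, lay below the median of those bearing it. The ranges overlapped in each background, since all 5 ΔadmA values of argB and 4 of 5 of mde1 lay inside the control range. Of the ΔadmAΔadmB libraries 4 of 5 lay below every ΔadmB library for each gene.

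**Figure D3:**
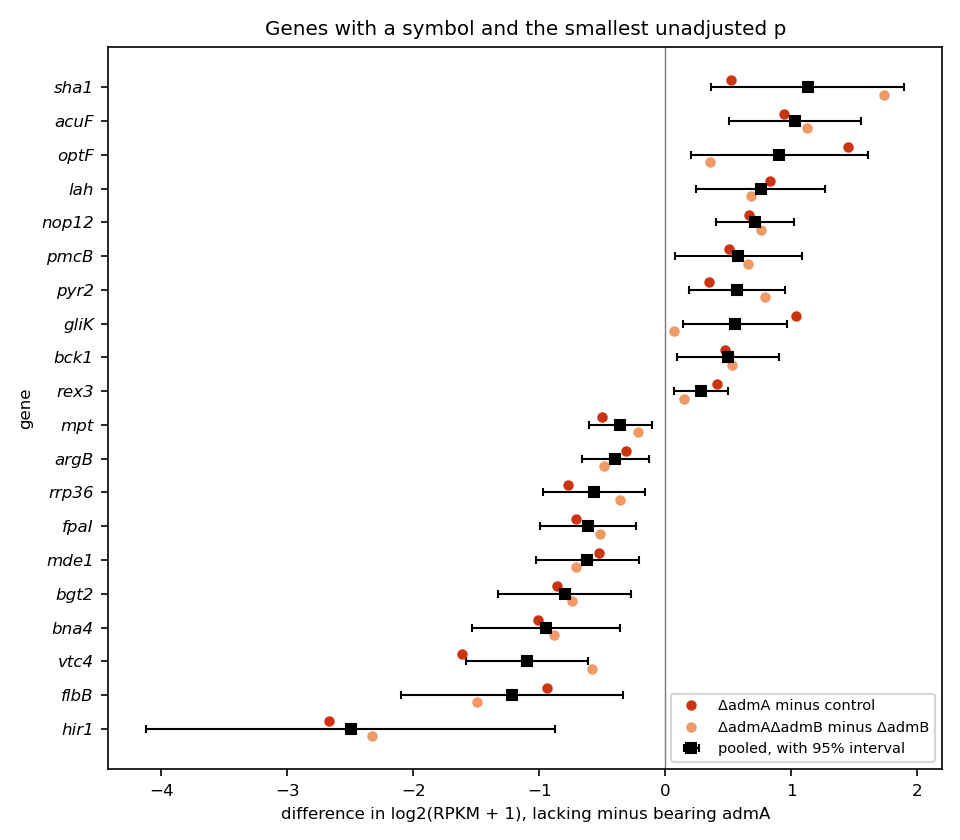
Difference in log2(RPKM + 1), lacking minus bearing admA, for the 20 genes with a symbol named by the rule; black squares are the pooled difference with its 95% interval, red points ΔadmA minus control, orange points ΔadmAΔadmB minus ΔadmB. The 2 background values lie close together for bck1 and nop12 and far apart for gliK, optF and sha1. None of the 20 passed the adjusted test of admA absence or that of the interaction.

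Of genes without a symbol, those with the smallest p after AO090010000345 that were higher without admA were AO090005000734 and AO090009000562. AO090005000734 measured 319 to 616 RPKM in control, 840 to 1514 in ΔadmA, 378 to 607 in ΔadmB and 524 to 1259 in ΔadmAΔadmB, a pooled difference of 0.98 (SE 0.19, adjusted p = 0.145). AO090009000562 measured 45.1 to 167 RPKM in control, 144 to 397 in ΔadmA, 40.3 to 116 in ΔadmB and 75.7 to 202 in ΔadmAΔadmB, a pooled difference of 1.37 (SE 0.27, adjusted p = 0.145). All 10 libraries lacking admA lay above the median of those bearing it for both genes. The groups of AO090005000734 were apart where admB is present and overlapped where it is absent, and those of AO090009000562 overlapped in both.

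In reference gene order, 7 of the 55 genes lay within 3 places of another of them, in 3 runs, each of 1 direction. The runs are described here after their values were seen. AO090009000562 lay beside AO090009000561, which was also higher (0.81, adjusted p = 0.155), and AO090005000169 and AO090005000170 were both higher (0.57 and 0.63, adjusted p = 0.252 and 0.263). The third run held AO090020000280, AO090020000282 and AO090020000283, all lower without admA. The gene between them, AO090020000281, was lower as well in both backgrounds, by -1.20 and -1.04 (pooled unadjusted p = 0.0468), which makes 4 adjacent genes of 1 direction. The genes on either side, AO090020000279 and AO090020000284, differed by -0.16 and -0.03.

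In the run of 4, AO090020000280 measured 75.6, 82.0, 174, 78.6 and 229 RPKM in control and 84.5, 32.4, 62.3, 33.2 and 18.8 RPKM in ΔadmA. It measured 153, 292, 214, 670 and 442 RPKM in ΔadmB and 85.8, 230, 83.0, 60.0 and 29.9 RPKM in ΔadmAΔadmB. The groups overlapped at 1 library lacking admA in each background. The pooled difference was -1.72 (SE 0.37, adjusted p = 0.155). AO090020000283 differed by -1.88 with admB and -1.22 without it (pooled -1.55, adjusted p = 0.221), and AO090020000282 by -1.17 and -1.22 (pooled -1.20, adjusted p = 0.226). None of the 4 has a symbol, and none passed the adjusted test.

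Known pathways were followed through 23 lists of symbols, and no list member passed the adjusted test. Over all tested genes 5084 were higher without admA (47.7%), with a median log2 difference of -0.01. Of the 10652 tested, 2778 were higher in both backgrounds and 2793 lower in both. Of the 9 tested members of cell wall integrity signalling, all 9 were higher without admA and 8 were higher in both backgrounds, with a median of 0.23, from 0.28 with admB and 0.15 without it. Among them only bck1 and rom2 (0.23, adjusted p = 0.524) had an unadjusted p under 0.05. Of the 8, rho3 differed by only 0.0011 with admB and rho2 by 0.0059 without it. The median over the members of this list of the log2 deviation from each gene's own mean was taken in each library. It ran from -0.21 to 0.34 without admA and from -0.39 to 0.18 with it, so libraries of the 2 sides overlapped. This list was known to be higher in ΔadmA from the same libraries and is not independent evidence of its direction. Within set 1 alone 7 of the 9 were higher.

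Of 23 tested ribosome biogenesis genes, 19 were lower and 4 higher without admA, 13 of them lower in both backgrounds, with a median of -0.22. The median was -0.04 with admB and -0.40 without it, and -0.40 in set 1 alone against -0.05 in set 2 alone, where 9 of 23 were higher. Members with an unadjusted p under 0.05 included rrp36, of early ribosomal RNA cleavage (-0.57, adjusted p = 0.322), and rok1, an RNA helicase (-0.33, adjusted p = 0.350), while nop12 lay on the higher side. The translation list, in which 5 of the 12 members encode ribosomal proteins and the others translation factors or their partners, gave 10 of 12 lower and a median of -0.14, but 10 of 12 were higher in ΔadmA against control and 2 of 12 higher in ΔadmAΔadmB against ΔadmB. The autophagy list gave 6 of 6 higher, 3 of them in both backgrounds, with a median of 0.21. These 3 included atg1, the kinase that starts autophagy (0.67, adjusted p = 0.458), and tor, a kinase that represses it (0.21, adjusted p = 0.6575). The count of 6 therefore mixes opposed roles and gives no direction for autophagy. The list median was 0.02 with admB, where 3 of 6 were higher, and 0.42 without it, where 6 of 6 were.

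Lists tied to the surface of the hypha were mixed. Of 12 chitin genes 9 were higher, 5 in both backgrounds, with a median of 0.07; chitin synthase chsD differed by 0.53 (adjusted p = 0.580) and chitinase chiA1 by -1.04 (adjusted p = 0.757). Of 14 glucan genes 7 were higher, with a median of -0.02, and the glucanosyltransferase gel1 differed by -0.33 (adjusted p = 0.425). Of 9 genes of protein mannosylation and GPI anchors 7 were lower, with a median of -0.15, among them the mannosyltransferase pmt4 (-0.26, adjusted p = 0.460). Hyphal polarity and septation had 7 of 11 higher, with the GTPase racA at 0.24 (adjusted p = 0.527). The 7 included cdc48, cdc31 and prm1 (0.08, 0.02 and 0.23), symbols named after yeast genes of other roles. The count is therefore not of polarity and septation genes alone.

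Enzymes for growth on bran differed by background. Of 10 plant polysaccharide genes 9 were higher in the pooled comparison, but the median was 0.59 with admB and -0.26 without it, and 2 were higher in both. The regulator of xylanase and cellulase genes, xlnR, differed by 0.34 (adjusted p = 0.485), and the pectin methylesterase pmeA by -1.43 (adjusted p = 0.509). Secondary metabolism had 9 of 17 higher, with medians of 0.59 with admB and -0.05 without it. In ergosterol synthesis 11 of 15 were higher where admB is present and 1 of 15 where it is absent, with medians of 0.19 and -0.24. The conidiation list had 7 of 12 higher and a median of 0.07, with flbB and wetA, a regulator of late spore maturation (-0.22, adjusted p = 0.468), on the lower side. None of the differences between backgrounds in these lists was tested as a list.

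**Figure D4:**
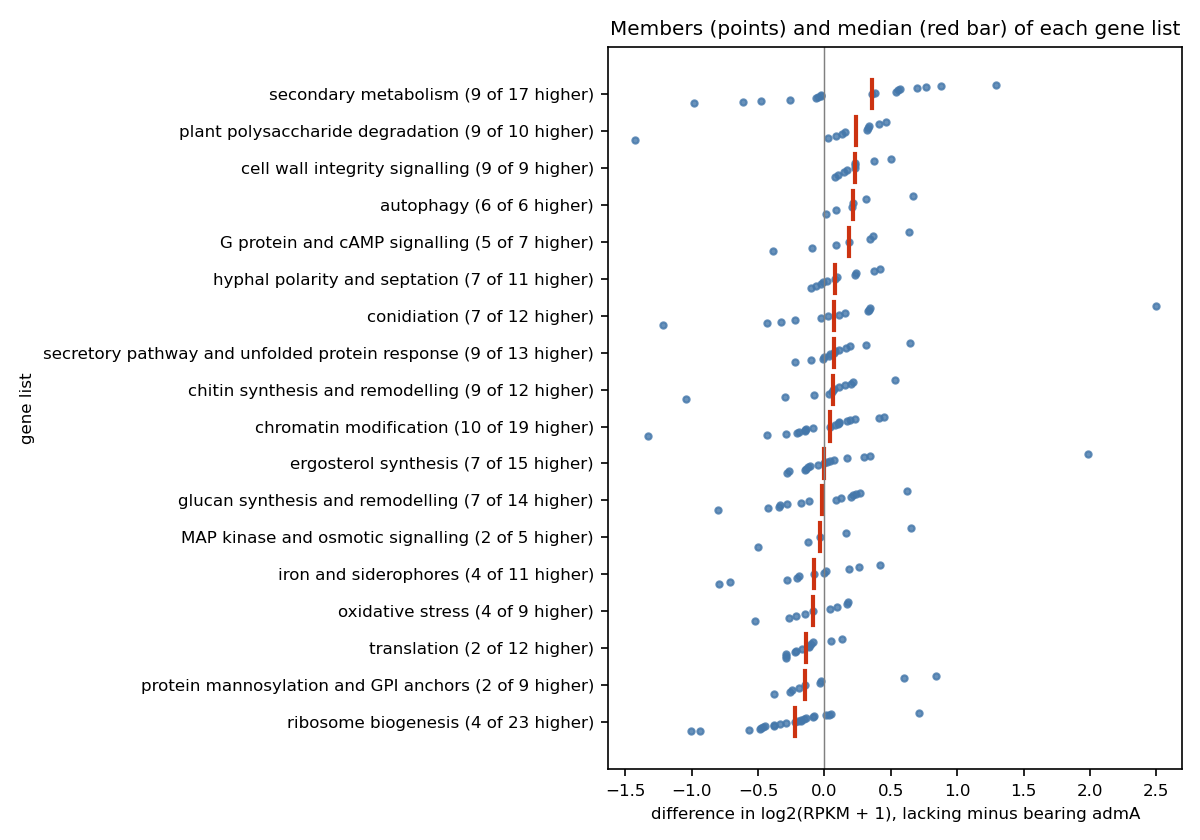
Pooled difference in log2(RPKM + 1), lacking minus bearing admA, of each member (points) of the 18 lists with at least 5 tested members, with the list median as a red bar. All 9 cell wall integrity genes and all 6 of the autophagy list, tor among them, lie above 0. Below 0 lie 19 of 23 ribosome biogenesis genes, and no member passed the adjusted test.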

How the data were processed

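Total RNA of wheat bran cultures (76.5 g of medium in a 1 L flask) was sequenced from 20 libraries, 5 of each strain. The authors deposited 1 file per library with an RPKM value for each gene, per the file headers. The submitters' processing notes name TopHat2 2.0.9, Cufflinks 2.1.1, CASAVA 1.8.2 and FastQC 0.10.1. For their settings, strand use and the genome build, nothing was found in the sources used here, so reads of overlapping genes may not be told apart. Depth in reads is unknown; no interval that needs it is given.

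All 12074 identifiers had an entry in the RefSeq gene table for ASM18445v3, 714 with a symbol. The table served only for symbols and gene order. Genes that reached 1 RPKM in 5 or more libraries were fitted as log2(RPKM + 1), a scale that understates differences of low genes. The tool was limma 3.58.1 under R 4.3.3, two-sided, with a mean-variance trend, no block, and admB status as a covariate. Another fit with 1 mean per strain gave the differences within each background and the interaction. Adjusted p-values are Benjamini-Hochberg over all tested genes, with a threshold of 0.05. The script was tested on simulated data. The admA level was compared by Fisher's exact test and a permutation test in scipy 1.17.1.

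The genes compared and the lists were chosen with earlier results of these data known. The naming rule took admA, admB, pyrG, ligD, the 10 symbols per direction with the smallest p and the same sign in both backgrounds, symbols with an unadjusted p under 0.05 in both, up to 2 called genes without a symbol per direction or, in a direction with no call, the 2 of smallest p, and up to 2 list members per direction; the text names some of the last. The 1 call was the lower gene so named, and the higher side was filled by p. After values had been seen, 4 symbols that denote another gene (arp6, facB, sreA and cdc123) were taken out of 3 lists, and the counts of genes past an unadjusted p in both backgrounds, the non-overlap counts and the gene runs were added.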

Additional observations from a re-analysis of the deposited data

Results flagged for a closer look

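In 119 groups of 5 libraries of 1 strain, covering 30 named genes, 9 values stood apart from the other 4 of their group by a gap that took up more than 0.71 of the group's range on the log2 scale. Chance alone flags about 1 in 20 such groups. For admA, control replicate 5 measured 14.2 RPKM against 0 to 0.249 in the other 4 controls, and ΔadmA replicate 4 measured 0.0917 RPKM where the other 4 were listed at 0. For pyrG, control replicate 5 measured 6.83 RPKM against 36.3 to 49.8, and ΔadmB replicate 4 measured 14.9 against 38.7 to 53.8. For lah, ΔadmA replicate 1 measured 19.8 RPKM against 49.1 to 69.1 in its strain, and ΔadmB replicate 4 measured 9.08 against 21.3 to 28.2. For pyr2, ΔadmA replicate 5 measured 10.6 RPKM against 23.7 to 25.3. For hir1, ΔadmA replicate 5 measured 160 RPKM against 50.5 to 67.7, and for mpt, ΔadmAΔadmB replicate 2 measured 6.11 RPKM against 4.81 to 5.11. Control replicate 5 and ΔadmB replicate 4 were also the highest 2 libraries bearing admA on the first principal component, at 83.7 and 94.4. Among libraries lacking admA, replicate 5 of ΔadmA and of ΔadmAΔadmB lay at 70.4 and 81.5 on it.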

How the results depend on the processing

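In each of the alternatives listed for the pooled comparison 28 genes (AO090010000345, AO090005000734, AO090009000562, the 20 symbols named by the rule, AO090009000076, AO090012000560 and 3 of the run of 4) kept their sign, over 948 values, and 5 of them gained a call, all with array quality weights. AO090010000345 kept its call in 9 of the 14 alternatives that leave out no library and 5 of the 20 that leave out 1. Its log2 difference ran from -1.56 to -0.91. The 1 gene called became 0 with no filter on low values, with 1 mean per strain, with the replicate block and in library set 1 alone; 11 with array quality weights; 2 in set 2 alone; and 0 to 2 with a library left out. The calls of the same direction were likewise 0, 0, 0, 0 and 11, and 0 to 2. Of the 11, 7 were higher, 10 were among the 55 genes, and nop12 was the 1 with a symbol. Interaction calls, 0 in the chosen fit, were 15 with weights, 3 with library set as a covariate, 1 in set 1 alone, 5 in set 2 alone, and 0 to 63 with a library left out, 63 without ΔadmA replicate 1. Alternatives for the counts past an unadjusted p in both backgrounds were added after seeing the data: same-direction genes numbered 110 with the replicate block, 150 with weights, 15 in set 1 alone and 39 to 89 with a library left out, and opposite ones 33, 35, 48 in set 2 alone, and 12 to 24. Set 2 held only 1 ΔadmB library, on which its counts for the interaction and for both backgrounds rest. The admA difference, -0.87 (two-sided permutation test, p = 0.00012), was -0.97 to -0.54 with a library left out.

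Of 60 further list genes, 8 changed sign in 14 of 2036 values, none of them called. In set 1 alone rhbA was -0.0567, gprC -0.279, prnC -0.327 and act1 0.0284. In set 2 alone sec31 was -0.186, kexB -0.0005246 and tif32 -0.0140. With a library left out kexB ran from -0.00927 to 0.0718, crossing 0 without control replicate 4 or ΔadmA replicate 4; dppIV from -0.167 to 0.0627, without control replicate 4, ΔadmA replicate 1 or ΔadmAΔadmB replicate 5; and act1 from -0.0507 to 0.00593, without control replicate 2 or ΔadmAΔadmB replicate 3. List counts, also recomputed after seeing the data, gave 7 to 9 of 9 cell wall integrity, 4 to 6 of 6 autophagy and 1 to 9 of 23 ribosome biogenesis genes higher. The cause of these changes was not tested. Replicate numbers were not taken to pair libraries, since not every same-numbered pair had deviations that correlated over 0.1. A partly shared effect can also miss that bar. Same-numbered pairs correlated at -0.23 to 0.52 (median 0.15, 19 of 30 over 0.1), and other pairs at a median of -0.04 (24 of 120 over 0.1). For 11 of 20 libraries the best correlation was with one of their own number. Libraries of 1 number were thus more alike than others, in the data and not by the design, and the chosen fit leaves this out. With the replicate number as a block, limma lost the 1 call (adjusted p = 0.128). The 4 other genes named in the runs were not recomputed. Depth is unknown, and genes below the filter, admA among them, have no adjusted p.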

Other observations

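Among the remaining lists, counts are read beside the 47.7% of all tested genes that were higher without admA. Counts in both backgrounds are read beside the 2778 genes higher in both and 2793 lower in both, of 10652 tested. Other membrane proteases were represented by 2 genes of the ADAM and rhomboid list. Of these rhbA, a rhomboid protease, differed by 0.25 (adjusted p = 0.734). The other, rbd2, was near 0 at 0.02 (adjusted p = 0.992), with 0.19 where admB is present and -0.15 where it is absent. Of 13 genes of the secretory pathway and unfolded protein response 9 were higher, 4 of them in both backgrounds, with a median of 0.07; hacA, the regulator of the unfolded protein response, differed by 0.19 (adjusted p = 0.803) and the coat protein gene sec31 by 0.64 (adjusted p = 0.567). Of 19 chromatin genes 10 were higher, with a median of 0.04, and the arginine methyltransferase rmt2 differed by -0.44 (adjusted p = 0.419). Of 7 genes of G protein and cAMP signalling 5 were higher, with a median of 0.19, and of 5 MAP kinase and osmotic signalling genes 2 were, with a median of -0.03.

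Iron and siderophore genes had 7 of 11 lower, 4 of them in both backgrounds, with a median of -0.08; hapX, the repressor of iron use, differed by 0.18 (adjusted p = 0.615) and the ferroxidase gene fetC by -0.71 (adjusted p = 0.624). Oxidative stress genes had 5 of 9 lower, with a median of -0.09 and cat1, of a catalase, at -0.53 (adjusted p = 0.450). Beside vtc4 the phosphate list held phoB at 0.17 (adjusted p = 0.791) and phoC at -0.21 (adjusted p = 0.8655). It also held pacC, which is the ambient pH regulator, at 0.69 (adjusted p = 0.566). The small lists for starch (3 genes), secreted and vacuolar proteases (4) and nitrogen regulation (4) had medians of 0.21, -0.01 and 0.07. None of these genes passed the adjusted test.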
